A study of Mus musculus with 10 samples.

Results

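Type I interferon-stimulated genes were followed in leukemia initiating cells, the B cell precursors from which leukemia arises in mice with the RFP/RET transgene. The 36 genes were taken from a list of names and not by a threshold on measured values, although the list was drawn up with earlier results of these data known. All 36 were found among the 55494 annotated genes with a deposited transcript, and all 36 passed the filter on low counts that left 13729 genes for testing. RNA-seq was done on spleen cells isolated by flow cytometry from 13-day-old pups, 1 pup for each library per the series' design text. Pups had received 50 µl of PBS (5 libraries) or 20 µg of Poly(A:U) (5 libraries) 7 days before, and the stated question was what Poly(A:U) does to these cells. Both groups carried the transgene, named Eu-RET in the titles, in which the Eµ enhancer of the immunoglobulin heavy chain locus drives the fusion gene in B lineage cells, so that no group without it stands beside them. The libraries are called PBS 1 to PBS 5 and Poly(A:U) 1 to Poly(A:U) 5 by the numbers in their titles.

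Type I interferons (interferon alpha and beta) are secreted after cells sense foreign nucleic acid. They bind the receptor chains IFNAR1 and IFNAR2, whose kinases JAK1 and TYK2 activate transcription factors such as STAT2. With IRF9 this forms a complex that binds the interferon-stimulated response element in the promoters of a large set of genes, many of which encode proteins that restrict viruses. Poly(A:U) is a synthetic double-stranded RNA sensed by Toll-like receptor 3, one of the receptors that lead to interferon secretion, and the induced transcripts usually decline again once the stimulus is gone.

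The response element was searched for as GAAANNGAAA on either strand in the RefSeq promoter table (GRCm38.p6), which runs from 250 bases before to 50 bases after each gene's start. Of the 36 genes 25 were in that table, and 10 of the 25 (40%) held a match, against 3.99% of 27025 genes. The 10 were Bst2, Ddx60, Eif2ak2, Ifi203, Ifit1, Ifit3, Ifit3b, Ifitm3, Isg15 and Trim30a. Windows of Isg15, Ifit1, Ifit3, Ifit3b, Ddx60 and Bst2 are shown because they hold such matches. Trim25, whose log2 fold change had the opposite sign to most of the list, is added as a window without a match. Each window is written 5′ to 3′ in the direction of the gene, and capitals mark matches.
Isg15, chr4:156200819-156200938, minus strand: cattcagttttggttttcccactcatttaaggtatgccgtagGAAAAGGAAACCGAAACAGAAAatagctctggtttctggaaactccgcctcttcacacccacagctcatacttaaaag
Ifit1, chr19:34640769-34640888, plus strand: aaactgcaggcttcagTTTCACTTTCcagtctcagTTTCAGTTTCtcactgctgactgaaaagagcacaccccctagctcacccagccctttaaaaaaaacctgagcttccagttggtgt
Ifit3, chr19:34583329-34583438, plus strand: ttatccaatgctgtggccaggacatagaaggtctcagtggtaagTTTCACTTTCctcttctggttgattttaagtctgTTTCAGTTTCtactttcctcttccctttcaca
Ifit3b, chr19:34607727-34607836, plus strand: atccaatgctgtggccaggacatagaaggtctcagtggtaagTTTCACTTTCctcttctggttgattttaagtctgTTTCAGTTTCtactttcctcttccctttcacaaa
Ddx60, chr8:61927967-61928086, plus strand: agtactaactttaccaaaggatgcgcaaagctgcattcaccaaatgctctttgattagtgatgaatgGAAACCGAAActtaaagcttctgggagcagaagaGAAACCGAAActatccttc
Bst2, chr8:71537543-71537642, minus strand: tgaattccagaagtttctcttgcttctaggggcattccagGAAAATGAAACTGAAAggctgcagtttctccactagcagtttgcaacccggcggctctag
Trim25, chr11:88999283-88999402, plus strand: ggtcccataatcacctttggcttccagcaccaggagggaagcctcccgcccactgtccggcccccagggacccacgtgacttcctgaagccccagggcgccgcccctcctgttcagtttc
In Isg15 the capitals are 3 overlapping matches, and in Bst2 they are 2 overlapping matches. The windows of the neighbouring genes Ifit3 and Ifit3b were identical over 108 of 108 bases at a shift of 2, while their whole promoters matched in 201 of 268 bases at the best ungapped offset. A match is a description of letters and was not tested as a binding site.

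The 36 genes spanned a wide range of levels in these cells. On the TPM scale, which takes transcript length into account, Ly6e, a membrane protein held by a lipid anchor, was the highest at 693 ± 152 TPM (SD over 10 libraries). It was followed by Ifi27 at 200.5 ± 62.9 TPM, Ifi203 at 125 ± 26.1 TPM and Ifi27l2a at 110.5 ± 38.7 TPM. At the other end stood Ifit3b at 0.565 ± 0.457 TPM, Mx1 at 0.569 ± 0.918 TPM and Ifi44 at 0.896 ± 0.612 TPM. Thus genes that are textbook reporters of strong interferon signalling, Ifit1 (1.18 ± 0.54 TPM), Ifit3 (1.66 ± 0.81 TPM), Mx1 and Isg15 (12.2 ± 3.2 TPM), lay well below the most abundant members.

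Before the members are compared, the libraries have to be described. Libraries held 17859006 to 22587871 estimated reads, mitochondrial genes took 2.93% to 5.53% of them, and 13423 to 14723 genes had at least 10 reads in 9 libraries against 16032 in PBS 4. The 9 precursor markers used (Cd79a, Pax5, Vpreb1 and others) summed to 7142 to 11450 CPM (counts scaled to a common library total), so every library showed the labelled lineage. PBS 1, PBS 2 and PBS 3 share a start in their deposited file names that no Poly(A:U) library has. Their neutrophil markers summed to 687 to 1031 CPM, against 29.1 to 258 CPM in the other 7 libraries, and their erythroid markers to 134 to 417 CPM against 1272 to 11910 CPM. Each of the 9 neutrophil markers was above the other 7 libraries in all of PBS 1 to PBS 3, and Ctsg was at 0 in Poly(A:U) 5. The macrophage marker sum ranged from 134 to 171 CPM over PBS 1 to PBS 4, compared with 36.4 to 58.7 CPM elsewhere. In PBS 1 to PBS 3 most of it was Lyz2, which neutrophils express too (107 to 141 CPM there and 16.1 to 47.7 CPM in the other 7), and only 2 of the 8 markers were higher there than in PBS 4 and PBS 5. C1qa, a macrophage complement gene, was at 32.5 CPM in PBS 4 and at 0.728 to 4.29 CPM elsewhere. The natural killer genes Gzma and Ncr1 were low, but for both all of PBS 1 to PBS 3 lay above the other 7 libraries. Gzma was at 1.28 to 2.58 CPM there, against at most 0.615 CPM. Klrb1c and Klra8, the remaining natural killer markers listed, did not split this way. Klrb1c ranged from 5.49 to 7.09 CPM over PBS 1 to PBS 3 and was highest in Poly(A:U) 5 (10.9 CPM). Klra8 had reads in PBS 4 only (0.541 CPM). The 4 natural killer markers together summed to 8.69 to 9.19 CPM in PBS 1 to PBS 3. That sum lay within the 4.71 to 11.3 CPM spanned by the other 7. In PBS 1 to PBS 3 the Y-linked gene Ddx3y stood at 42.8 to 51.6 CPM and Xist at no more than 0.336 CPM, while the other 7 libraries held at most 4.67 CPM of Ddx3y and at least 112 CPM of Xist. T cell markers summed to 77.1 CPM in PBS 4, of which Cd3e was 53.9 CPM, and to 1.11 to 6.39 CPM elsewhere. Cd3g, Cd4 and Trac were also highest in PBS 4. Cd3d and Cd8a, at 0.1475 CPM each in PBS 4, were highest in PBS 3 and PBS 1. The name start occurs in PBS libraries only, and Ddx3y and Xist split the libraries in the same way. Within the comparison of all 10 libraries, the name start and the sex these transcripts mark cannot be told apart from part of the treatment contrast.

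No interferon-stimulated gene passed the test between Poly(A:U) and PBS, although most had a lower mean after Poly(A:U). Of 36 genes 32 had a negative log2 fold change (Poly(A:U) minus PBS), with a median of -0.30 and a range from -0.92 for Ifit3b to 0.50 for Trim25. Of all 13729 genes 50.6% were negative, with a median of -0.00. The edgeR quasi-likelihood test with Benjamini-Hochberg adjustment called 0 of the 36 genes at an adjusted p under 0.05 and 0 of 13729 genes (0%), and the members' adjusted p lay between 0.677 and 0.999. At an unadjusted p under 0.05 there were 3 of them (8.33%), Adar, Trim25 and Ifitm3, against 7.3% of all genes, which is close to the background. DESeq2's Wald test called 0 of the 36 and 13 genes in all. The groups were free of overlap in CPM for 0 of the 36 genes, against 0.947% of all genes. For 25 of the 36 (69.4%) the 95% interval excluded a 2-fold change in either direction, as it did for 82.7% of all genes. For Ifit1, Ifit3, Ifit3b, Ddx60, Mx1, Mx2, Ifitm3, Ly6a, Irf7, Ifi44 and Rtp4 it did not. These intervals are of all 10 libraries, so they do not bound the treatment apart from the name start. Without PBS 1 to PBS 3, those of Isg15 (-0.89 to 1.05), Isg20 (-1.27 to 0.90) and Parp12 (-1.01 to 0.55) included a 2-fold change. Those of Mx2 (-0.43 to 0.94) and Rtp4 (-0.60 to 0.66) then excluded it. In sorted bulk cells, fewer cells of a type and less of an RNA per cell cannot be told apart.

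The count of lower genes rested on PBS 1 to PBS 3. Without these libraries, with 2 PBS libraries left, 9 of the 36 genes had a negative log2 fold change, the median was 0.07, and the smallest adjusted p of the members was 0.852 in edgeR's test. All genes tested had 46.4% negative and a median of 0.02 in that fit. With the number that library names share as a term, which leaves the treatment to PBS 5 with Poly(A:U) 1 and PBS 4 with Poly(A:U) 5, 9 were negative and the median was 0.12.

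**Figure D1:**
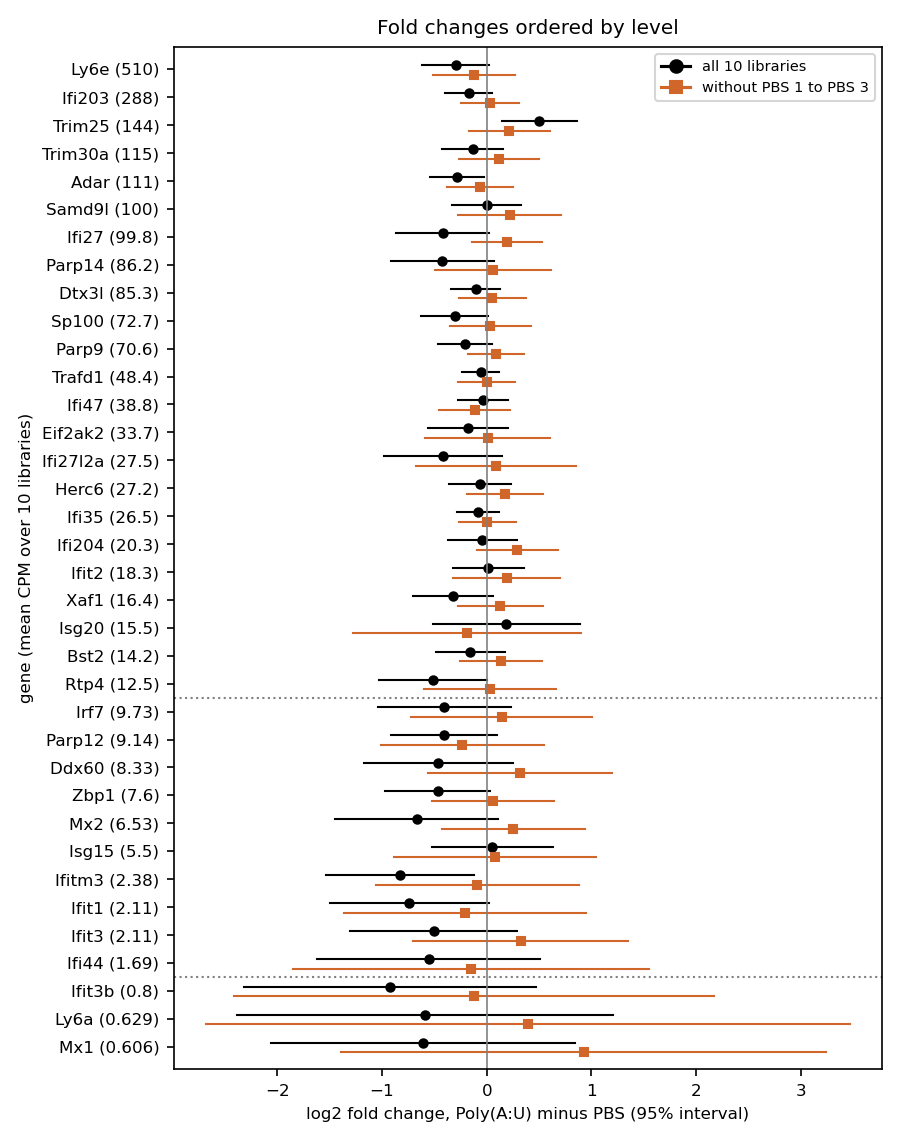
Log2 fold change of each gene (x axis, Poly(A:U) minus PBS) with its 95% interval, genes ordered on the y axis by mean CPM, from the edgeR fit with all 10 libraries (black circles) and without PBS 1 to PBS 3 (orange squares). Dotted lines part the genes at 1 and 10 CPM. Black circles lie left of 0 for 32 of 36 genes and orange squares for 9.

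Split by level, the lower means were found in every band and were largest where counts were few. The 3 genes with a mean under 1 CPM (Ifit3b, Mx1, Ly6a) were all negative, with a median of -0.61, where 50.8% of all genes of that band were negative. Of the 10 genes with a mean from 1 to under 10 CPM 9 were negative, with a median of -0.49 (51.7% of all genes in the band). Of the 23 genes of at least 10 CPM 20 were negative, with a median of -0.16 (50.1% of all genes in the band). The median standard error went the same way, from 0.67 to 0.33 to 0.15 on the log2 scale. Without PBS 1 to PBS 3 the medians of the bands were 0.39, 0.07 and 0.06.

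Per library, the list stood highest in PBS 1 to PBS 3 and next in Poly(A:U) 5. For each library the log2 CPM of every member was taken minus that gene's mean over the 10 libraries. The median of these deviations was 0.38 in PBS 1, 0.20 in PBS 2 and 0.32 in PBS 3, but -0.12 in PBS 4 and -0.25 in PBS 5. In Poly(A:U) 1 to Poly(A:U) 5 it was -0.36, -0.16, -0.05, -0.25 and 0.18 in that order. PBS 4 and PBS 5 therefore lay inside the range of the Poly(A:U) libraries, while PBS 1 to PBS 3 lay above it. The highest of the 10 libraries was PBS 1, PBS 2 or PBS 3 for 26 of the 36 genes (23.8% of all genes) and Poly(A:U) 5 for 7 (21.9% of all genes). The 3 remaining genes, Isg15, Isg20 and Ifi47, were highest in Poly(A:U) 2 (Isg15 and Isg20) or PBS 4 (Ifi47).

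**Figure D2:**
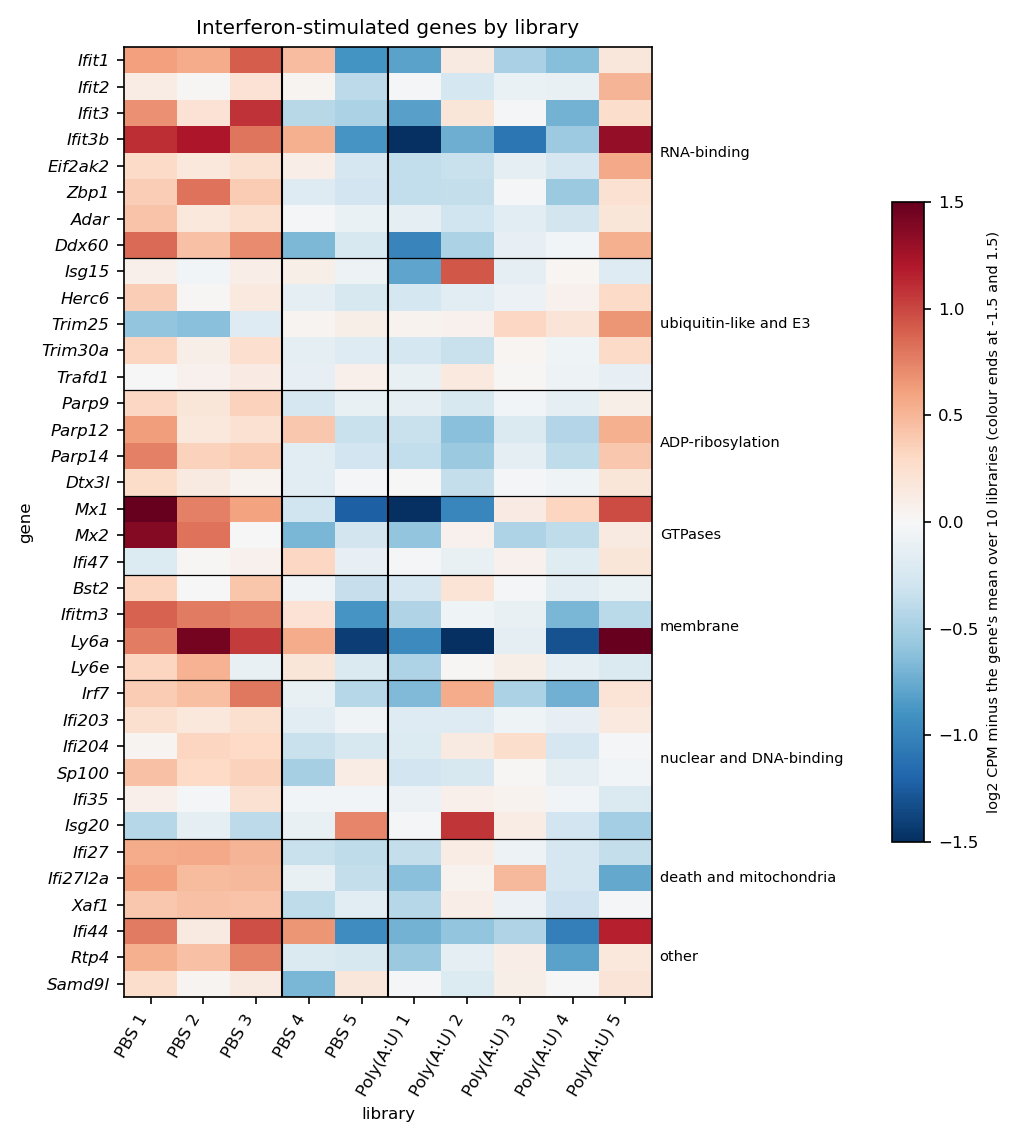
Log2 CPM of each of the 36 genes (rows, by role) minus the gene's mean over the 10 libraries (columns); red is above and blue below the mean, and colours end at -1.5 and 1.5. Vertical lines part PBS 1 to PBS 3, PBS 4 and PBS 5, and the Poly(A:U) libraries: red fills most rows of PBS 1 to PBS 3 and many of Poly(A:U) 5, and Trim25 and Isg20 show blue in PBS 1 to PBS 3.

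The difference within the PBS group was tested directly. In a fit with treatment and the shared name start as terms, 33 of the 36 genes were higher in PBS 1 to PBS 3 than in PBS 4 and PBS 5, with a median log2 difference of 0.49, where 48.1% of all genes were higher. The edgeR test called 1 of the 36 (2.78%) at an adjusted p under 0.05, Ifi27, against 0.561% of all genes. At an unadjusted p under 0.05 there were 21 of the 36 (58.3%), against 18.7% of all genes. In CPM, PBS 1 to PBS 3 all lay above the other 7 libraries for 8 genes (22.2%), Ifit1, Zbp1, Parp9, Ifitm3, Sp100, Ifi27, Xaf1 and Rtp4, against 4.27% of all genes. They all lay below the other 7 for 1 gene (2.78%), Trim25, against 6.88% of all genes. The neutrophil, erythroid and sex-linked transcripts named above differed between the same libraries, as did the natural killer genes Gzma and Ncr1. So did Siglech, a gene of plasmacytoid dendritic cells. Klrb1c, Klra8, Ccr9 and Cox6a2, other markers of natural killer and plasmacytoid dendritic cells, showed no such split. The part of any of these transcripts in the difference of the list within PBS was not tested.

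**Figure D3:**
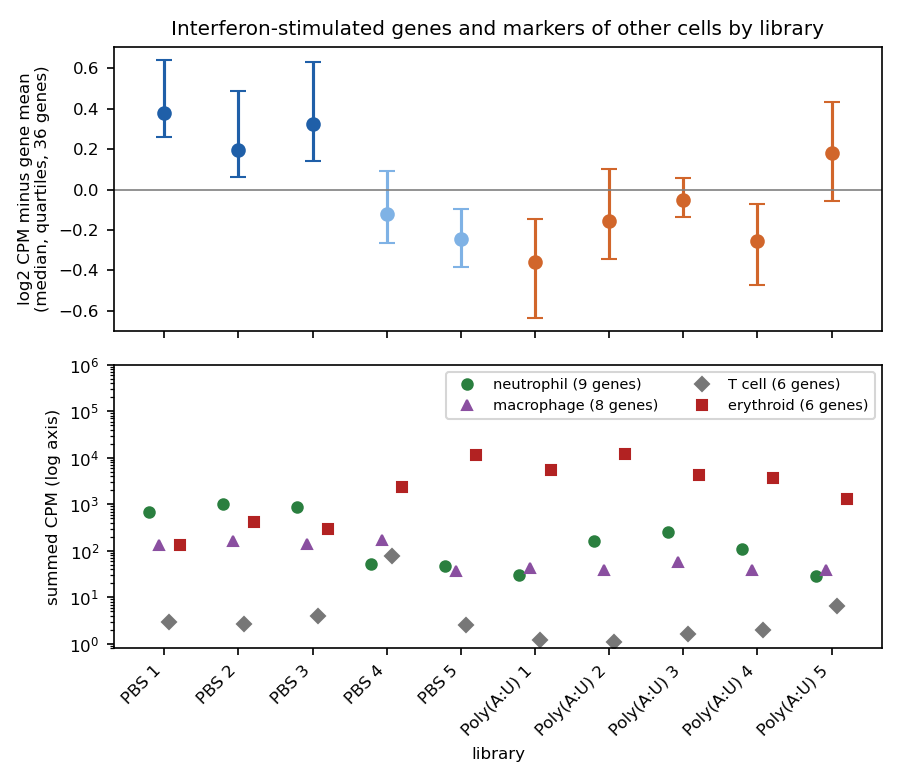
Upper panel: median (point) and quartiles (bars) of the log2 CPM deviations of the 36 genes in each library, with PBS 1 to PBS 3 in dark blue, PBS 4 and PBS 5 in light blue and Poly(A:U) in orange. Lower panel: summed CPM of marker genes of other cells in the same libraries on a log axis, with points set side by side for legibility; neutrophil markers are highest and erythroid markers lowest in PBS 1 to PBS 3, and T cell markers stand out in PBS 4.

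Between libraries whose names share a number the list did not move one way. From PBS 5 to Poly(A:U) 1, 25 of the 36 genes were lower, with a median log2 CPM difference of -0.08 (49.5% of all genes were lower). From PBS 4 to Poly(A:U) 5, 26 of the 36 were higher, with a median of 0.35 (49.3% of all genes were higher). Lower in both pairs were 5 genes and higher in both 6. There is 1 library on each side of a pair, so these values carry no test.

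Among the genes whose products bind or act on RNA, all but 1 of 8 had a lower mean in Poly(A:U), with a median log2 fold change of -0.47, and 0 of the 8 passed the test. Adar encodes the deaminase that turns adenosine into inosine in double-stranded RNA. Its level was 149, 121, 128, 104 and 103 CPM in PBS 1 to PBS 5 and 100.1, 85.5, 99.8, 92.8 and 130.0 CPM in Poly(A:U) 1 to Poly(A:U) 5. The groups overlapped, since Poly(A:U) 5 exceeded every PBS library but PBS 1, and PBS 4 and PBS 5 lay inside the Poly(A:U) range. The log2 fold change of Adar was -0.28 ± 0.12 (SE, adjusted p = 0.677, edgeR), and it was -0.06 ± 0.14 without PBS 1 to PBS 3. Ifit1, whose product binds the ends of foreign RNA, was at 3.03, 2.86, 3.68, 2.61 and 0.990 CPM in PBS and at 1.06, 2.04, 1.37, 1.23 and 2.28 CPM in Poly(A:U). PBS 5 was the lowest of all 10 libraries, while the other PBS libraries were above every Poly(A:U) library. The log2 fold change of Ifit1 was -0.74 ± 0.35 (SE) with a 95% interval that reached up to 0.02 (adjusted p = 0.687, edgeR). Ifit2, another member of that family, was at 19.5, 18.04, 20.7, 17.9 and 13.7 CPM in PBS and at 17.5, 14.4, 17.1, 17.0 and 26.8 CPM in Poly(A:U). Here the extremes were PBS 5, the lowest, and Poly(A:U) 5, the highest, and the log2 fold change was 0.01 ± 0.16 (SE).

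Ifit3 averaged 2.46 ± 1.21 CPM with PBS and 1.75 ± 0.61 CPM with Poly(A:U) (SD, n = 5 each), and its near copy Ifit3b 1.04 ± 0.49 and 0.557 ± 0.666 CPM. The authors' estimation divided the reads of this pair between them, which leaves the level of either uncertain. Ddx60, a helicase that aids RNA sensing, averaged 9.57 ± 3.95 CPM with PBS and 7.09 ± 2.96 CPM with Poly(A:U), and all of PBS 1 to PBS 3 exceeded PBS 4 and PBS 5 for it. Eif2ak2, the double-stranded RNA-dependent kinase PKR, was at 35.4 ± 4.9 and 32.0 ± 10.9 CPM, with Poly(A:U) 5 at 51.1 CPM and the other Poly(A:U) libraries at 25.03 to 30.1 CPM. Zbp1, a sensor of Z-form nucleic acid, was at 8.74 ± 2.82 and 6.45 ± 1.63 CPM. The log2 fold changes of these genes ran from -0.92 ± 0.64 (SE) for Ifit3b to -0.18 ± 0.18 for Eif2ak2.

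Annotated transcripts of Adar begin at upstream and at downstream starts. Which of these starts responds to interferon was not tested. The 3 annotated transcripts from the upstream starts (positions 89715022 and 89715332 of chromosome 3, mm10) took 0% to 12.6% of the gene's TPM in a library, and the 6 from downstream starts the rest. The upstream transcripts were at 1.86 ± 0.96 TPM in PBS and 1.64 ± 1.22 TPM in Poly(A:U), and the downstream ones at 31.0 ± 6.3 and 26.5 ± 6.9 TPM (SD, n = 5 each). Both sets overlapped between the groups. How estimation shared reads among overlapping transcripts limits these values.

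Of the ISG15 system and the E3 ligases 3 of 5 genes had a lower mean in Poly(A:U), and 0 of 5 passed the test. Isg15 encodes the ubiquitin-like protein that is attached to targets after interferon. It was at 5.62, 5.10, 5.65, 5.46 and 5.04 CPM in PBS and at 3.01, 9.79, 4.92, 5.55 and 4.84 CPM in Poly(A:U). The PBS libraries spanned a narrow range that lay inside that of Poly(A:U), whose extremes were Poly(A:U) 1 and Poly(A:U) 2, and the log2 fold change was 0.05 ± 0.27 (SE). Trim25, an E3 ligase that acts on the RNA sensor RIG-I and takes part in ISG15 attachment, was at 92.3, 88.9, 121, 138 and 148 CPM in PBS and at 144, 139, 175, 164 and 230.4 CPM in Poly(A:U). It was the only member with an unadjusted p under 0.05 and a higher mean in Poly(A:U). Its PBS libraries lay below every Poly(A:U) library except PBS 5, which exceeded Poly(A:U) 1 and Poly(A:U) 2. The log2 fold change of Trim25 was 0.50 ± 0.16 (SE, adjusted p = 0.677, edgeR), and 0.22 ± 0.17 without PBS 1 to PBS 3. Herc6, the main ligase that attaches ISG15 in mice, averaged 27.5 ± 4.9 and 26.8 ± 4.9 CPM. Trim30a, a brake on Toll-like receptor signalling, averaged 119 ± 19.4 and 111 ± 23.0 CPM, and Trafd1, another negative regulator, 49.0 ± 3.7 and 47.8 ± 2.6 CPM. The log2 fold changes of these 3 genes lay between -0.13 and -0.06, each within its standard error.

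All 4 genes of ADP-ribosylation had a lower mean in Poly(A:U), with a median log2 fold change of -0.31, and 0 of 4 passed the test. Parp14, a mono-ADP-ribosyltransferase, was at 140.0, 104, 106, 71.5 and 67.8 CPM in PBS and at 63.9, 53.9, 75.7, 65.0 and 114 CPM in Poly(A:U). Poly(A:U) 5 exceeded every PBS library but PBS 1, and PBS 4 and PBS 5 fell among the other Poly(A:U) libraries. Its log2 fold change was -0.42 ± 0.22 (SE), and 0.06 ± 0.24 without PBS 1 to PBS 3. Dtx3l, the E3 ligase that works as a complex with PARP9, was at 103, 91.9, 86.7, 72.7 and 83.4 CPM in PBS and at 83.6, 63.3, 84.8, 83.0 and 100.4 CPM in Poly(A:U). The groups overlapped over most of their range, and the log2 fold change was -0.11 ± 0.11 (SE). Parp9 averaged 74.98 ± 13.7 and 66.2 ± 7.8 CPM and Parp12 10.3 ± 2.4 and 7.97 ± 3.10 CPM. Parp9 and Dtx3l are transcribed head to head and overlap from 35938470 to 35939151 of chromosome 16 (mm10). Whether counting used strand is not given in the sources used here, so reads from that stretch cannot be assigned to either with certainty.

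All 3 interferon-inducible GTPases had a lower mean in Poly(A:U), and 0 of 3 passed the test. On the TPM scale Mx1 averaged 0.569, Mx2 4.36 and Ifi47 31.5 over the 10 libraries. Mx2 was at 15.5, 10.3, 5.81, 3.49 and 4.85 CPM in PBS and at 3.85, 5.89, 4.31, 4.59 and 6.75 CPM in Poly(A:U). PBS 1 and PBS 2 alone exceeded the Poly(A:U) range, and PBS 4 lay below it. The log2 fold change of Mx2 was -0.67 ± 0.36 (SE), with a 95% interval from -1.45 to 0.10. Mx1 ranged over 0.746 to 1.56 CPM in the libraries PBS 1 to PBS 3 and stood at 0.141 and 0.344 CPM in the other PBS libraries and at 0.0557 to 1.05 CPM in Poly(A:U), the lowest library holding 1 read. In Mx2 the transcript that took on average 76.8% of the gene's TPM is annotated as a polymorphic pseudogene, that is, a gene broken in the reference strain. Ifi47, a GTPase of the immunity-related family, was at 33.6, 38.7, 40.0, 46.4 and 35.4 CPM in PBS and at 37.6, 34.2, 41.1, 34.7 and 45.9 CPM in Poly(A:U). The groups spanned nearly the same range, and its log2 fold change was -0.04 ± 0.11 (SE).

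All 4 membrane proteins had a lower mean in Poly(A:U), and 0 of 4 passed the test. Ifitm3, which blocks the fusion of viruses with the endosome, was at 4.10, 3.75, 3.68, 2.46 and 1.13 CPM in PBS and at 1.56, 1.99, 2.04, 1.35 and 1.69 CPM in Poly(A:U). All PBS libraries except PBS 5 lay above every Poly(A:U) library, and PBS 5 lay below every one. The log2 fold change of Ifitm3 was -0.83 ± 0.33 (SE, adjusted p = 0.677, edgeR), and -0.09 ± 0.42 without PBS 1 to PBS 3. Ly6a, the stem cell antigen Sca-1, was at 0.782, 1.29, 0.960, 0.639 and 0.0943 CPM in PBS and at 0.167, 0.0443, 0.379, 0.112 and 1.82 CPM in Poly(A:U). Its highest library was Poly(A:U) 5 and its lowest Poly(A:U) 2 with 1 read, so that its log2 fold change of -0.59 ± 0.82 (SE) is poorly determined. Bst2, or tetherin, which holds budding virus at the cell surface, averaged 14.9 ± 3.2 and 13.5 ± 1.5 CPM, and Ly6e averaged 558 ± 117 and 462 ± 65.9 CPM. Bst2 is also a marker of plasmacytoid dendritic cells. The other markers of those cells, Siglech, Ccr9 and Cox6a2, stayed at or under 1.33 CPM in every library, and Siglech was at 0 in Poly(A:U) 1 and Poly(A:U) 4. In PBS 1 to PBS 3 Siglech was at 0.480 to 0.784 CPM, above the other 7 libraries (at most 0.295 CPM). Ccr9 was instead highest in PBS 4 (1.33 CPM) and Cox6a2 in PBS 5 (0.848 CPM). The part of plasmacytoid dendritic cells in the level of Bst2 was not tested.

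Of the nuclear and DNA-binding members 5 of 6 had a lower mean in Poly(A:U), and 0 of 6 passed the test. Irf7, the transcription factor that amplifies interferon production, was at 12.02, 12.4, 15.7, 8.21 and 6.79 CPM in PBS and at 5.74, 13.0, 6.67, 5.66 and 11.1 CPM in Poly(A:U). Poly(A:U) 2 and Poly(A:U) 5 reached the level of PBS 1 to PBS 3 or came close to it, and the other Poly(A:U) libraries lay below every PBS library. Its log2 fold change was -0.40 ± 0.29 (SE). Irf7-210, a transcript of Irf7 with a retained intron, took from 0% to 52.6% of the gene's TPM. It averaged 9.36 ± 10.1% in PBS and 32.0 ± 21.4% in Poly(A:U) (SD), a difference that was not tested. Irf7-205, another such transcript, reached 24.9% in Poly(A:U) 3. The coding transcript Irf7-201 took from 0% (Poly(A:U) 3) to 87.5% (Poly(A:U) 1). The level of the coding transcripts is therefore less certain than the gene's total. Sp100, which builds nuclear bodies, was at 96.9, 86.7, 89.5, 48.9 and 76.9 CPM in PBS and at 58.0, 57.7, 73.6, 66.3 and 72.6 CPM in Poly(A:U). PBS 4 was the lowest of all 10 libraries and the other PBS libraries were the highest. Its log2 fold change was -0.31 ± 0.15 (SE, adjusted p = 0.693, edgeR), and 0.03 ± 0.17 without PBS 1 to PBS 3.

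Ifi203 and Ifi204 belong to the PYHIN family of DNA-binding proteins, whose members are similar in sequence. Ifi204 was at 20.7, 24.7, 24.5, 15.3 and 17.0 CPM in PBS and at 17.4, 21.1, 24.6, 17.2 and 20.5 CPM in Poly(A:U). The groups spanned nearly the same range, and the log2 fold change was -0.04 ± 0.15 (SE). Ifi203 averaged 303 ± 40.0 and 274 ± 36.1 CPM and Ifi35, which binds leucine zipper proteins, 27.0 ± 2.4 and 25.9 ± 1.7 CPM. Isg20, an exonuclease that degrades single-stranded RNA, was the exception of this group with 14.4 ± 5.7 CPM with PBS and 16.5 ± 7.6 CPM with Poly(A:U). Its highest libraries were PBS 5 at 24.4 CPM and Poly(A:U) 2 at 29.6 CPM, against 10.7 to 16.0 CPM in the other 8. These are the 2 libraries with the most erythroid transcripts, whose markers summed to 11740 CPM (PBS 5) and 11910 CPM (Poly(A:U) 2) against at most 5489 CPM elsewhere. The part of erythroid RNA in the level of Isg20 was not tested.

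All 3 genes linked to mitochondria and cell death had a lower mean in Poly(A:U), with 0 of 3 past the test, and all 3 were split within the PBS group. Ifi27 was at 143, 141, 136, 73.8 and 74.2 CPM in PBS and at 75.2, 100.3, 93.0, 82.5 and 79.0 CPM in Poly(A:U). PBS 1 to PBS 3 lay close together and above all others, and PBS 4 and PBS 5 lay below every Poly(A:U) library. Ifi27 was higher in PBS 1 to PBS 3 than in PBS 4 and PBS 5 by a log2 difference of 0.90 ± 0.14 (SE), and edgeR gave it an adjusted p of 0.0212. Its log2 fold change for Poly(A:U) was -0.42 ± 0.20 (SE, adjusted p = 0.693, edgeR) with all libraries and 0.19 ± 0.15 without PBS 1 to PBS 3. Xaf1, an antagonist of the caspase inhibitor XIAP, was at 21.2, 21.4 and 21.4 CPM in PBS 1 to PBS 3, at 11.9 and 14.4 CPM in PBS 4 and PBS 5, and at 11.8 to 16.5 CPM in Poly(A:U). The name-start difference of Xaf1 was 0.69 ± 0.17 on the log2 scale (SE, adjusted p = 0.0892, edgeR). Ifi27l2a, the neighbour of Ifi27 on chromosome 12, was at 40.2, 36.02, 36.4, 23.3 and 20.5 CPM in PBS and at 16.9, 26.1, 37.3, 22.4 and 16.1 CPM in Poly(A:U). For this gene Poly(A:U) 3 reached the level of PBS 1 to PBS 3, and the log2 fold change was -0.42 ± 0.26 (SE).

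**Figure D4:**
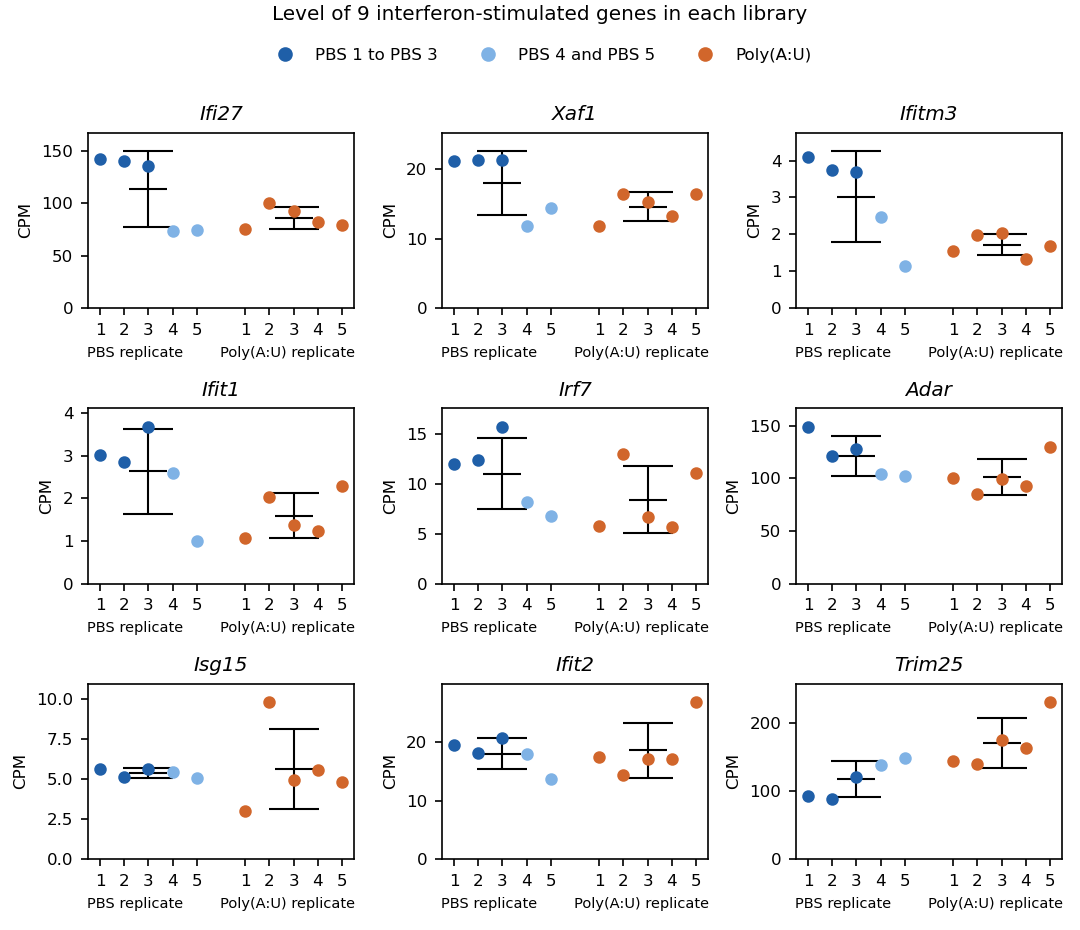
CPM of 9 of the genes in each library (y axis, from 0; points), with the mean and SD of each group of 5 as black lines. PBS 1 to PBS 3 (dark blue) stand above the other libraries for Ifi27, Xaf1, Ifitm3 and Ifit1 and below them for Trim25, and Isg15 and Ifit2 show no such split.

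Rtp4, a chaperone of membrane receptors with antiviral activity, was at 17.3, 16.0, 19.8, 9.93 and 10.04 CPM in PBS and at 8.03, 10.3, 13.0, 6.95 and 13.9 CPM in Poly(A:U). PBS 1 to PBS 3 were above all others and PBS 4 and PBS 5 inside the Poly(A:U) range. Its log2 fold change was -0.51 ± 0.24 (SE, adjusted p = 0.686, edgeR), and 0.03 ± 0.27 without PBS 1 to PBS 3. Samd9l, a translation inhibitor, was at 119, 100.3, 107, 59.2 and 111 CPM in PBS and at 97.0, 82.2, 107, 102 and 118 CPM in Poly(A:U). Apart from PBS 4, the lowest, all libraries lay in one range, and the log2 fold change was -0.00 ± 0.15 (SE). Ifi44 averaged 1.99 ± 0.86 and 1.39 ± 1.19 CPM, with 3.51 CPM in Poly(A:U) 5.

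Another test gave more calls. With limma voom and quality weights, which set how much each library counts from its own spread, 9 of the 36 genes (25%) had an adjusted p under 0.05, against 6.79% of all genes. They were Ifit3b, Adar, Parp9, Parp14, Irf7, Ifi203, Sp100 and Xaf1, lower in Poly(A:U), and Trim25, higher. The weights were 1.21, 2.04 and 1.58 for PBS 1 to PBS 3, against 0.222 for PBS 4 and 0.717 for PBS 5. They were 0.335 for Poly(A:U) 5 and 0.642 to 3.58 for the other Poly(A:U) libraries. This fit does not separate the name start from the treatment either. In edgeR without PBS 1 to PBS 3, Parp9, Parp14, Irf7, Ifi203, Sp100 and Xaf1 changed sign (0.032 to 0.14). Ifit3b (-0.12), Adar (-0.06) and Trim25 (0.22) kept theirs. The part of the weights in these calls was not tested.

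The genes that make and transmit the interferon signal were expressed except for the ligands. Of 17 ligand genes (Ifnb1 and the interferon alpha, epsilon and kappa genes) 16 had 0 reads in all 10 libraries, and Ifna2 had at most 2 reads in 1 library. A count of 0 allows up to 3 reads, that is 0.133 to 0.168 CPM by library, for counting error only. The other 16 genes of the pathway list were tested, and edgeR called 0 of them (0% of all genes). Their log2 fold changes were 9 negative and 7 positive, with a median of -0.02 (50.6% of all genes were negative). In edgeR 1 had an unadjusted p under 0.05, against 7.3% of all genes. That gene was Stat2, at 71.0 ± 11.5 CPM with PBS and 59.5 ± 8.5 CPM with Poly(A:U) (log2 fold change -0.28 ± 0.11, SE), with -0.04 ± 0.13 without PBS 1 to PBS 3. Irf9 averaged 50.7 ± 6.3 and 49.2 ± 10.3 CPM. The receptor chains Ifnar1 (59.99 ± 7.6 and 66.4 ± 3.4 CPM) and Ifnar2 (27.3 ± 1.1 and 28.4 ± 1.7 CPM) and the kinases Jak1 (577 ± 82.5 and 502 ± 87.5 CPM) and Tyk2 (52.7 ± 5.5 and 50.9 ± 5.6 CPM) were present throughout. Usp18, which removes ISG15 and restrains the receptor, averaged 7.92 ± 3.05 and 5.86 ± 1.62 CPM. In PBS 1 to PBS 3 against PBS 4 and PBS 5, 10 of the 16 were higher, where 48.1% of all genes were. The edgeR test called 0 of them, against 0.561% of all genes, which is close to the background.

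Promoter letters and expression can be set side by side. The 10 genes with a response element match had a median log2 fold change of -0.32, with 9 of 10 negative, and the 15 in the table without a match -0.09, with 12 of 15 negative. Between PBS 1 to PBS 3 and PBS 4 and PBS 5 the medians were 0.63 and 0.28. The sets also differed in level. Under 10 CPM stood Ifit1, Ifit3, Ifit3b, Ifitm3, Isg15 and Ddx60 with a match, and Ifi44, Irf7 and Parp12 without. Fold changes of the list were largest where counts were few, and a link between letters and expression was not tested. No match says only that these letters are absent from the window, and 11 of the 36 genes (Zbp1, Parp9, Parp14, Mx1, Mx2, Ly6a, Ly6e, Ifi204, Ifi27, Ifi27l2a and Rtp4) were not in the table.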

How the data were processed

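RNA-seq was measured in sorted leukemia initiating cells of 5 PBS and 5 Poly(A:U) pups. The authors deposited estimated counts and TPM values per transcript, per the file headers, and a normalized signal per gene for the whole series (13699 genes). DRAGEN, the build mm10 and edgeR 3.38.4 come from the submitters' processing notes. Neither the counter's settings nor its use of strand is given in the sources used here. Estimated counts were summed per gene with GENCODE M21 (mm10) and rounded. This left out 538 of 142333 transcripts, which held 0.046% to 0.0695% of a library's reads. Totals of 17859006 to 22587871 make 1 read worth 0.0443 to 0.056 CPM.

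CPM values in the text are per library total. Groups were compared with edgeR 4.0.16 (R 4.3.3) by its quasi-likelihood test with TMM factors and filterByExpr (minimum count 10, about 0.49 CPM in 5 libraries). The test was also run on simulated data whose means and spread were taken from these libraries. Adjusted p-values are Benjamini-Hochberg over all 13729 genes, two-sided, with SE and 95% intervals from the fit. Deviations of a library use TMM-scaled log2 CPM with a prior count of 2. Groups come from the labels, and library pairs and the name start from the file names, whose meaning the labels do not give.

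The genes, their roles, the pathway and marker lists and the alternatives were chosen with earlier results of these data known. 1 gene of the pathway list and 1 of the marker lists are not reported here. All 36 genes are named. Values of every library are given for the genes with the smallest and largest unadjusted p in each role and for Ifit1, Isg15 and Irf7. Alternatives were other scalings and filters, DESeq2 1.42.0, limma 3.58.1 (voom with quality weights, and the authors' deposited signal as log2 of the value plus 0.5), a replicate block, left-out libraries and library-name terms.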

Additional observations from a re-analysis of the deposited data

Results flagged for a closer look

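Of 72 groups of 5 values (36 genes in each of the groups PBS and Poly(A:U)), 8 held a library whose gap to its nearest neighbour exceeded 0.71 of the group's range, where chance gives about 1 in 20 groups. That is 11.1% of the groups, close to the 10.3% found over all 13729 tested genes. In 6 of them the library was Poly(A:U) 5 (16.7% of the 36 genes, against 4.95% of all tested genes, a difference that was not tested). It had 26.8 CPM of Ifit2 (the other Poly(A:U) libraries 14.4 to 17.5), 1.73 CPM of Ifit3b (0.112 to 0.392), and 51.1 CPM of Eif2ak2 (25.03 to 30.1). It also had 13.3 CPM of Parp12 (5.41 to 7.67), 1.82 CPM of Ly6a (0.0443 to 0.379) and 3.51 CPM of Ifi44 (0.672 to 1.04). The other 2 concerned Isg20, at 24.4 CPM in PBS 5 against 10.9 to 13.1 CPM in the rest of PBS, and at 29.6 CPM in Poly(A:U) 2 against 10.7 to 16.0 CPM in the rest of Poly(A:U).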

How the results depend on the processing

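Other scaling factors, library totals, no filter and DESeq2 kept the direction of every gene of the list except Samd9l (0.024 on the log2 scale with library totals). With a filter of 10 CPM, 21 of the 24 genes tested were negative. DESeq2 called 13 of all genes, limma voom with quality weights 932, and the edgeR test between 0 and 18 when 1 library was left out, 18 without PBS 5 and 0 without any other. Without 1 library the median of the list lay between -0.37 and -0.22 and 29 to 33 genes were negative, and single genes that crossed 0 ranged over Herc6 -0.16 to 0.029, Ifi204 -0.12 to 0.035, Ifi47 -0.098 to 0.047, Ifit2 -0.15 to 0.072, Ifnar2 -0.029 to 0.056, Irf9 -0.15 to 0.016, Isg15 -0.28 to 0.21, Isg20 -0.17 to 0.44, Samd9l -0.13 to 0.068. With the replicate number as a block, 0 genes were called, the median was -0.28 and 33 genes were negative, with Ifit2 -0.0033, Isg15 -0.062 and Samd9l 0.027 crossing 0. Same-numbered libraries correlated at r = -0.18 to 0.14 in their deviations over genes, so the numbers were not taken to pair them. Without PBS 1 to PBS 3 the median was 0.069 and 9 genes were negative, and these crossed 0: Ifit3 0.32, Eif2ak2 0.0074, Zbp1 0.058, Ddx60 0.32, Herc6 0.18, Trim30a 0.12, Trafd1 0.00049, Parp9 0.088, Parp14 0.059, Dtx3l 0.055, Mx1 0.93, Mx2 0.25, Bst2 0.14, Ly6a 0.39, Irf7 0.14, Ifi203 0.035, Ifi204 0.29, Sp100 0.032, Ifi35 0.0065, Isg20 -0.18, Ifi27 0.19, Ifi27l2a 0.088, Xaf1 0.13, Rtp4 0.029, Samd9l 0.22, Tyk2 0.038, Irf9 0.13 and Usp18 0.063. With the number in the names as a term (median 0.12, 9 negative) these did: Ifit3 0.21, Ifit3b 0.23, Eif2ak2 0.18, Zbp1 0.18, Adar 0.087, Ddx60 0.26, Isg15 -0.50, Herc6 0.21, Trim30a 0.18, Parp9 0.15, Parp12 0.073, Parp14 0.25, Dtx3l 0.18, Mx1 0.79, Mx2 0.26, Bst2 0.019, Ly6a 1.24, Irf7 0.054, Ifi203 0.089, Ifi204 0.17, Sp100 0.028, Isg20 -0.59, Ifi27 0.0061, Xaf1 0.043, Ifi44 0.41, Rtp4 0.036, Samd9l 0.34, Jak1 0.14, Tyk2 0.096, Stat2 0.055 and Irf9 0.070. With voom these did: Ifit2 -0.12, Isg15 -0.13, Ifi47 0.0080 and Ifnar2 -0.0092. With the authors' deposited signal these did: Isg15 -0.046, Herc6 0.012, Trafd1 0.051, Samd9l 0.0085 and Ifnar2 -0.055. The cause of these shifts was not tested. Depth limits the genes under 1 CPM, where 1 library can hold 1 read.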
